A study of Drosophila melanogaster with 3 samples.

Results

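The Dpp pathway of the fly is described here by 10 genes, chosen by symbol from a list: the ligands dpp and gbb, the receptors tkv, sax and put, the Smad proteins Mad and Med, the nuclear factors shn and brk, and the inhibitor Dad. The list was drawn up with earlier results of these data known, so the counts below are descriptions. All 10 were found among the 13945 protein-coding genes on the 6 chromosome arms of the Ensembl release 115 annotation. Each gene was given the peaks whose summit, the position of highest signal within a peak, lay between 2000 bp upstream of its most upstream transcription start site (TSS) and its end.

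Chromatin immunoprecipitation with sequencing (ChIP-seq) was carried out on whole Drosophila melanogaster embryos of 8 to 14 h, males and females pooled, from the fd64A-GFP strain, a transgenic line that stably expresses the forkhead factor fd64A (FoxL1) with GFP fused to its C-terminus. There were 3 biological replicates from 1 donor strain in 1 group. No untagged strain, mutant or second stage was sampled, so the series holds no contrast between conditions and no test between groups was possible. The labels do not name the promoter that drives the fusion. The age field could not be read as hours, so the age was taken from the sample source. The sample descriptions call the libraries input controls, whereas the assay and antibody fields and the deposited lists mark them as immunoprecipitated samples.

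Dpp and Gbb are secreted ligands of the bone morphogenetic protein (BMP) family. They bring together type I receptors, Tkv and Sax, with the type II receptor Put, and the type I receptors then phosphorylate Mad. Phosphorylated Mad enters the nucleus with Medea, the product of Med, and at many genes recruits Schnurri, a large zinc finger protein, to silence transcription. The best known gene silenced in this way is brk, whose product Brinker represses Dpp target genes. In embryos of these hours Dpp signalling is known from dorsal closure, tracheal branch migration, the midgut and the heart.

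The deposited lists comprised 30000 relaxed peaks for each replicate, 30000 for the 3 replicates pooled, and 2919 peaks that passed the authors' threshold on the irreproducible discovery rate (IDR), a measure of agreement between replicates. The 2919 IDR peaks were also the 2919 strongest of the pooled list, so the 2919 strongest peaks of each replicate are called its leading peaks below. Peak signal is the authors' own value, and it was used only to describe and rank peaks within a list. Between 1598 and 4964 relaxed peaks per replicate had a q-value under 0.05. Replicate 3 had the fewest and replicate 1 the most, so that many of the 2919 leading peaks of replicate 3 did not have a q-value under 0.05. Read depth was not given, so its part in these differences was not tested. Peaks of whole embryos do not tell binding in a few cells from weak binding in many, and these lists hold no expression values with which to check cell types.

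The genome sequence under 6 of the summits is shown first, because the words it holds recur in the results: both summits of brk, and the strongest summit of dpp, tkv, Mad and Dad. Each window runs 50 bp to each side of the summit, 101 bases, on the plus strand of release 6 of the genome. Capitals mark forkhead words and Brinker words on either strand. The forkhead words were GTAAACA with its variant GTAAATA, and ATAAACA with its variant ATAAATA. The Brinker words were TGGCGCC with its variant TGGCGCT, and TGGCGTC with its variant TGGCGTT. The window of brk summit 1 is chrX:7305947-7306047, that of brk summit 2 is chrX:7307087-7307187, that of dpp summit 1 is chr2L:2433618-2433718, that of tkv summit 1 is chr2L:5256599-5256699, that of Mad summit 1 is chr2L:3153349-3153449, and that of Dad summit 2 is chr3R:17065334-17065434. All 6 windows lie in introns of the annotation.
brk 1: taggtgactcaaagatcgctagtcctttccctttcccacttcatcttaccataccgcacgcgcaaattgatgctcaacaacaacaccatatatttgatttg
brk 2: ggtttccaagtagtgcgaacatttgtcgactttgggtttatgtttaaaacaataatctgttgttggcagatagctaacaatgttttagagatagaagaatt
dpp 1: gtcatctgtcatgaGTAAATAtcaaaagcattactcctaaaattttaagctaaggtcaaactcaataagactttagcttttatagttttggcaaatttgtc
tkv 1: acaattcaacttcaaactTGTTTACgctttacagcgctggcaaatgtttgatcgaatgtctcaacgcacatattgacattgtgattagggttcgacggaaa
Mad 1: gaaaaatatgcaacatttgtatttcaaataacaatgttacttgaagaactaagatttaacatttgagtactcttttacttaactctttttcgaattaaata
Dad 2: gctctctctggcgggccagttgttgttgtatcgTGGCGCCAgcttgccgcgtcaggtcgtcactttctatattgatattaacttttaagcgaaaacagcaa

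Of the 10 genes, 7 held at least 1 IDR summit (70.0%, 95% Wilson interval 39.7% to 89.2%), against 16.9% of all protein-coding genes. Because the genes were chosen with earlier results known, this difference is a description and not a test of enrichment. The 7 were dpp, gbb, tkv, Mad, shn, brk and Dad. The type II receptor gene put, the type I receptor gene sax and the co-Smad gene Med held none. At least 2 IDR summits lay in 6 of the 10 genes, against 4.44% of all protein-coding genes. Longer genes offer more room for summits, and the 10 genes were therefore also set beside genes of like length. Among genes under 5 kb, 2 of 4 members (brk and gbb, not sax or Med) held an IDR summit, against 10.7% of all. Among genes of 5 to 20 kb, 2 of 3 did (Mad and Dad, not put), against 30.4%. All 3 members over 20 kb did (shn, tkv and dpp), against 48.4%.

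The replicates differed little in the number of genes reached and more in which ones. In each of the 3 replicates, 8 of the 10 genes held a leading summit. Over all protein-coding genes the shares were 16.9%, 17.2% and 16.2% for replicates 1, 2 and 3. The same 7 genes held one in every replicate, and the eighth was sax in the first replicate, Med in the second and put in the third. In the relaxed pooled list, all 10 genes held a summit, against 68.5% of all protein-coding genes.

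The 10 spans held 23 IDR summits, of which 11, or 47.8%, were in shn. Summed over the 10 genes, there were 21, 21 and 22 leading summits in replicates 1, 2 and 3 (21.3 ± 0.577, SD, n = 3). The shn count was 10 in every replicate and stood apart from all the others. That evenness holds at an equal number of leading peaks: with a q-value under 0.05 required instead, 13, 11 and 6 relaxed shn summits passed in replicates 1, 2 and 3. It was followed by tkv at 2.67 ± 0.577, Dad at 2.0 ± 0.0, dpp at 1.67 ± 0.577, Mad at 1.67 ± 1.15, brk at 1.33 ± 0.577 and gbb at 1.0 ± 0.0. Below shn, the replicate ranges of every pair of neighbours in this order overlapped. The even counts of Dad and shn do not stand for the same peaks. Beside Dad 2, the other leading Dad summit was at 2969 bp in replicate 2 (rank 2403) and at Dad 1 in replicate 3. In replicate 1 it was 11177 bp into the gene (rank 587), close to Dad 2 at 11377 bp, and overlapped no pooled peak. In shn, leading summits outside the IDR peaks lay at 20161 bp in replicate 1 and at 39285 bp in replicate 3. Replicate 2 had them at 39290 and 39855 bp. Summits 8, 10 and 11 of shn were each leading in only some replicates. For tkv, such summits outside the IDR peaks lay at 36557 bp in replicate 2 and at 37962 and 37733 bp in replicate 3. The genes put, sax and Med each had a single leading summit in 1 replicate and none in the other two, a mean of 0.333 ± 0.577.

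**Figure D1:**
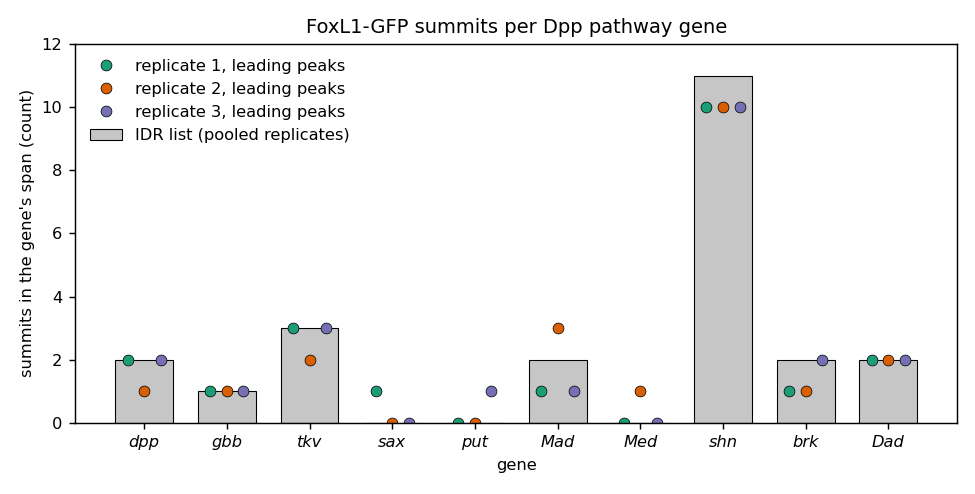
Number of summits in the span of each Dpp pathway gene (vertical axis, count), with grey bars for the IDR list and points for the leading peaks of each of the 3 replicates. The shn bar reaches 11 with 10 leading summits in every replicate, and no other gene exceeds 3.

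The ligand genes carried few summits, but 1 of them was among the stronger peaks of the list. The decapentaplegic gene dpp (FBgn0000490, chr2L:2428372-2459823, plus strand, 31.5 kb) held 2 intronic IDR summits, 5.3 kb and 17.8 kb downstream of its first TSS. The first had a signal of 294 and rank 1293 in the IDR list, and it overlapped leading peaks of rank 1892, 1292 and 1428 in replicates 1, 2 and 3. The second had a signal of 208 and rank 2471, and its peaks ranked 1907, 8458 and 1943, so that only replicates 1 and 3 held it among their leading peaks. Both had a forkhead word within 50 bp: GTAAATA in the first, at 36 bp to the left of the summit in the window printed above, and the overlapping words GTAAATA and ATAAATA in the second. Both were far from the 4 annotated TSSs of dpp, the nearest being 5296 bp from the first summit and 4060 bp from the second.

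The glass bottom boat gene gbb (FBgn0024234, chr2R:23851562-23853247, plus strand, 1.69 kb), which encodes the other ligand, held 1 IDR summit, 1159 bp upstream of its TSS. Its signal of 926 and rank of 99 made it the strongest of the 23 summits. Its peaks ranked 144, 71 and 140 in the 3 replicates, so all 3 placed it among their leading peaks. The position is shared: the summit lay inside the neighbouring gene ytr and 73 bp downstream of the start of the antisense RNA asRNA:CR45928, which was the nearest TSS. The peak cannot be assigned to gbb, ytr or the antisense RNA from these lists.

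Of the receptor genes, tkv alone held IDR summits. The type I receptor gene tkv (FBgn0003716, chr2L:5219000-5271384, minus strand, 52.4 kb) held 3, all in introns and all with at least 1 forkhead word within 50 bp. The first, 14.7 kb from the gene's start, had a signal of 400 and rank 724, with GTAAACA on the minus strand, and its peaks ranked 662, 1190 and 485. The second, 15.0 kb from the start, ranked 758 and had 2 forkhead words. In replicate 1 it overlapped the same peak of rank 662 as the first, and in replicates 2 and 3 it overlapped no relaxed peak. The third, at 31.8 kb, ranked 2662, and its peaks ranked 2646, 3145 and 4347, of which only the first is leading. The TSS nearest to each belonged to another gene: lncRNA:CR44744 for the first and second, and a transfer RNA gene for aspartate for the third. The tkv TSSs themselves were 12510, 12237 and 2251 bp away.

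The receptor genes without an IDR summit had weaker peaks near their starts. The other type I receptor gene, sax (FBgn0003317, chr2R:7806484-7810067, plus strand, 3.58 kb), had its best pooled peak 464 bp into the gene, at pooled rank 3899. It ranked 2157 in replicate 1 but 7382 in replicate 2 and 8839 in replicate 3. The next, at pooled rank 4298, was 278 bp from the start of Nop17l. The type II receptor gene put (FBgn0003169, chr3R:14619030-14625703, minus strand, 6.67 kb) had its best pooled peak 454 bp into the gene, at pooled rank 5980 with 1 forkhead word. That peak ranked 7059 in replicate 1 and 4398 in replicate 2 and had no counterpart in replicate 3. A further put peak, 1319 bp into the gene, was leading in replicate 3 (rank 2196) but ranked 9073 and 13229 in replicates 1 and 2.

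The Smad genes parted: Mad held 2 IDR summits and Med none. Mad (FBgn0011648, chr2L:3146056-3159643, minus strand, 13.6 kb), which encodes the Smad that the receptors phosphorylate, carried the second strongest summit of the set, with a signal of 841 and rank 128. That summit was intronic, 646 bp upstream of the second of 2 Mad TSSs, and its peaks ranked 160, 153 and 85 in the 3 replicates. Its window, printed above, holds no forkhead or Brinker word and has the lowest share of G and C among the 23, 22.8%. The other Mad summit, in a 5′ UTR exon, was the weakest of the 23 (rank 2870), had the highest share of G and C, 56.4%, and was leading only in replicate 2, where it ranked 2129 against 4480 and 3078 in replicates 1 and 3. The TSS nearest to this weaker Mad summit was that of ND-B14.5B, 3393 bp away, and the nearest Mad TSS was 3512 bp away. Med (FBgn0288966, chr3R:31611046-31615375, plus strand, 4.33 kb), the co-Smad gene, had its best pooled peak at rank 3338, 1219 bp upstream of its TSS. This peak lay 12 bp upstream of a start of the overlapping gene CycG and ranked 3322, 1974 and 25938 in the 3 replicates.

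The schnurri gene shn (FBgn0003396, chr2R:11159086-11217394, plus strand, 58.3 kb) held 11 IDR summits spread over 33.6 kb of its body, with 214 to 9004 bp between neighbours. No IDR summit lay in the first 14550 bp of the gene or near its most upstream TSS. Going downstream, the strongest came first: summit 1, 167 bp upstream of the second of 5 annotated TSSs, had a signal of 765 and rank 163, and its peaks ranked 165, 154 and 201. It was the only one of the 11 within 500 bp of a TSS, and its window held GTAAACA. Summit 9, 43.8 kb from the start, was second in strength (signal 601, rank 301), with peaks of rank 630, 195 and 235 and 2 overlapping forkhead words. Summit 7, at 36.9 kb, ranked 545, with peaks of rank 533, 440 and 571 and 2 separate forkhead words, one of them GTAAACA. Summit 3, at 25.5 kb, ranked 597, with peaks of rank 551, 644 and 730 and no forkhead word.

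The remaining 7 summits of shn were weaker. Summits 5 and 6, which lie 214 bp apart, ranked 952 and 975 in the IDR list but overlapped the same peak in every replicate (ranks 691, 2005 and 955), and so are a single peak in each replicate. Summits 2 and 4 were leading in all 3 replicates, with ranks between 1305 and 2446. Summits 8 and 11 were leading in 2 replicates, and summit 10 only in replicate 3, where it ranked 1053 against 2974 in replicate 1 and 2993 in replicate 2. Summit 10 was the only shn summit with a Brinker word, TGGCGCC. In all, 8 of the 11 shn summits overlapped a leading peak in every replicate, and all 11 had a q-value under 0.05. A further peak, 90 bp downstream of the fourth shn TSS, lay just outside the IDR list at pooled rank 3058. It was leading in replicates 2 and 3 (ranks 2815 and 2728) but not in replicate 1 (rank 9634).

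**Figure D2:**
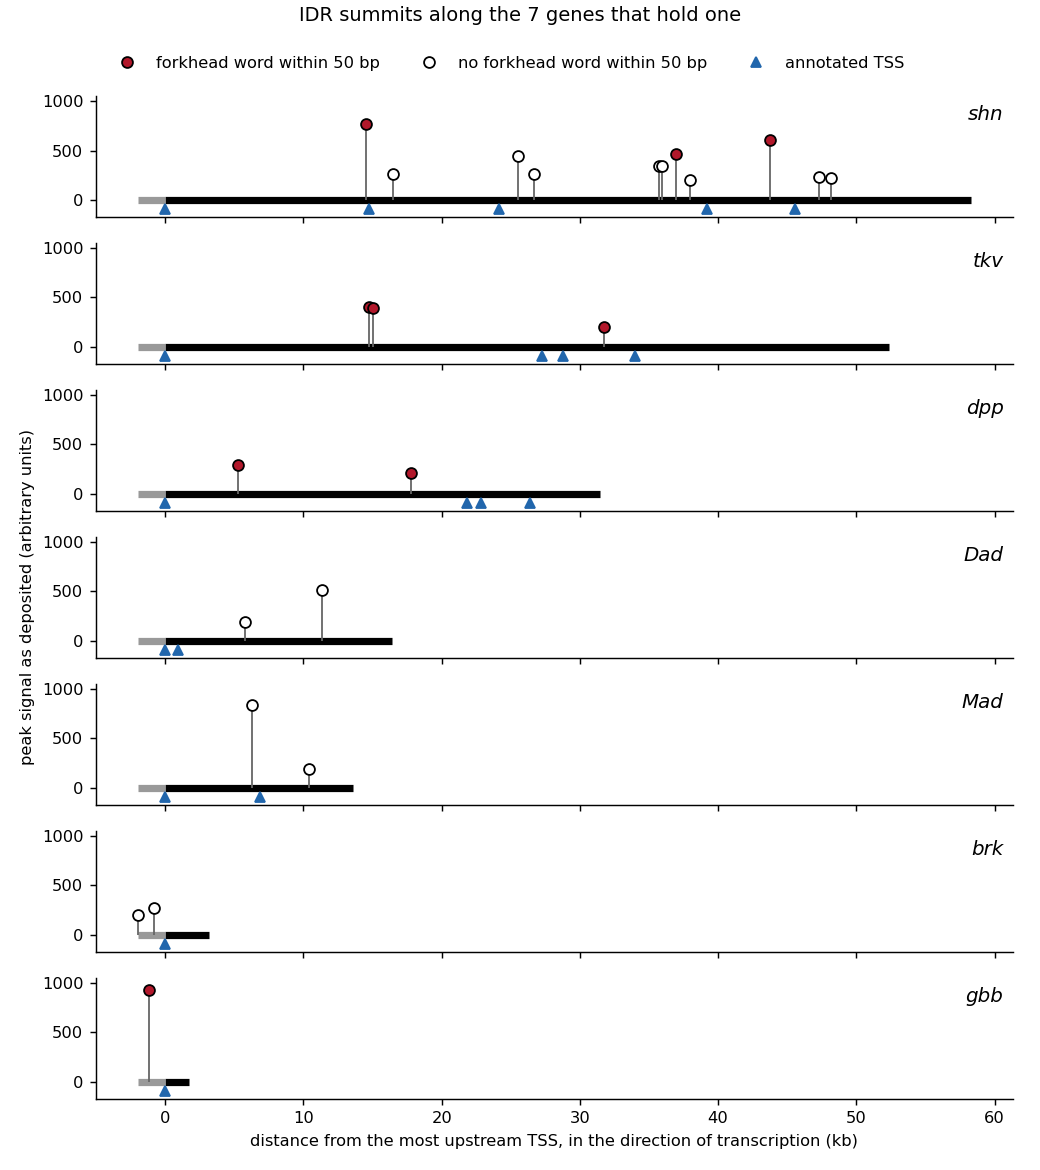
IDR summits along the 7 genes that hold one: distance from the most upstream TSS in kb (horizontal) against the peak signal as deposited (vertical, arbitrary units), with filled points for summits that have a forkhead word within 50 bp, blue triangles for annotated TSSs, black bars for gene bodies and grey bars for the 2000 bp upstream. The 11 shn summits begin 14.6 kb into the gene, and the gbb, Mad and shn 1 peaks are the tallest, at 926, 841 and 765.

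For its length shn was dense in summits, with 18.2 IDR summits per 100 kb of span. Of the 1013 protein-coding genes over 20 kb, 12 had a higher density. The other members over 20 kb were sparser: 147 of those genes exceeded the 5.98 per 100 kb of dpp, and 161 exceeded the 5.52 of tkv. The median density of the 1013 genes was 0.0 per 100 kb. Among the 190 genes nearest to shn in length, 46.6 kb to 72.9 kb, the median was 1.0 IDR summit and 91 had none. Only ush reached the count of shn among them. By distance over the 4 counts (the IDR list and the leading peaks of the 3 replicates), the genes most like shn were ush with 11 IDR summits and 10, 8 and 10 leading ones, CHES-1-like with 9 and 10, 9 and 8, and bun with 11 and 11, 14 and 9. The distances were 2.0, 3.0 and 4.24. The ush gene encodes a cofactor of GATA factors and CHES-1-like a forkhead factor.

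**Figure D3:**
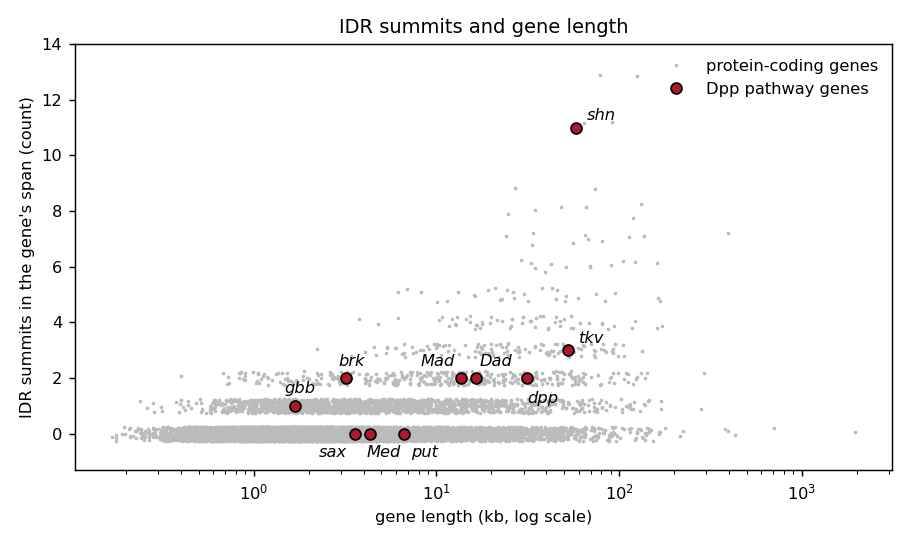
IDR summits in the span of each protein-coding gene (vertical, count, with small random vertical offsets for the grey points only) against gene length in kb (horizontal, log scale), with the 10 Dpp pathway genes in red. With 11 summits shn is the highest of the 10, tkv (3) and dpp (2) are lower at lengths of 52.4 kb and 31.5 kb, and sax, Med and put are at 0.

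The brinker gene brk (FBgn0024250, chrX:7307939-7311132, plus strand, 3.19 kb), which Schnurri is known to silence, held 2 IDR summits, both upstream of its only TSS. Summit 1 was 1942 bp upstream, with a signal of 206 and rank 2536. Its peaks ranked 3270, 10941 and 1463 in the 3 replicates, and only replicate 3 held it among its leading peaks. Summit 2 was 802 bp upstream, with a signal of 276 and rank 1466, and its peaks ranked 1057, 5999 and 803, so that replicates 1 and 3 held it and replicate 2 did not. Replicate 2 instead had a leading peak of rank 2773, 258 bp upstream of the TSS, which was not in the IDR list. It overlapped a replicate 3 peak of rank 2968, just past the leading peaks, a pooled peak of rank 8197 and no peak of replicate 1. Both windows printed above are free of the forkhead and Brinker words, of the word GTCTG and of the silencer element described below.

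Both brk summits also lie in introns of 2 overlapping genes, lncRNA:CR44357 and CG1677, the latter on the opposite strand and 125 kb long. The span of CG1677 held 13 IDR summits, of which 2 are those of brk. Upstream of the brk start lay 5 others, 13.6 kb to 21.7 kb away, 4 of them nearest to the start of unc-119 and 1 to the start of CG1677. Downstream of the brk end lay 6, between 11.3 kb and 30.8 kb from the brk start and nearest to the starts of Atg5, Dok, CG42780 and CBP. The strongest of the 13, with a signal of 951 and rank 88, was 293 bp upstream of CBP and 29.1 kb from the brk start. Of the 13, 8 had a better rank than either brk summit. Within 20 kb of the brk start lay 8 of the 13, brk's own included. Which of these genes a given peak serves was not tested.

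**Figure D4:**
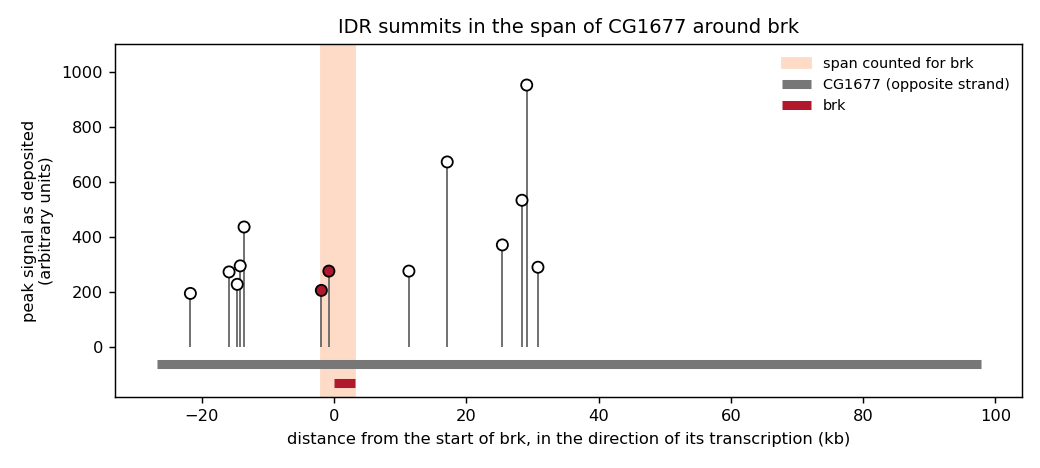
IDR summits in the span of CG1677: distance from the brk start in kb, in the direction of brk transcription (horizontal), against peak signal as deposited (vertical, arbitrary units). The 2 filled points in the shaded brk span, at 206 and 276, are lower than the peak of 951 at 29.1 kb.

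Dad, which encodes the inhibitory Smad and is itself switched on by Dpp, held 2 intronic IDR summits (FBgn0020493, chr3R:17054007-17070408, plus strand, 16.4 kb). The stronger, 11.4 kb into the gene, had a signal of 511 and rank 446. All 3 replicates placed it among their leading peaks, at ranks 590, 492 and 371. Its window holds the palindrome TGGCGCCA, a Brinker word on both strands, 17 bp to the left of the summit, and no forkhead word. The TSS nearest to this summit was that of Ns1, 7291 bp away, and the nearest Dad TSS was 10487 bp away. The weaker, 5.79 kb into the gene, ranked 2823 and was leading only in replicate 3, where it ranked 1638 against 6751 and 3585 in replicates 1 and 2.

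**Figure D5:**
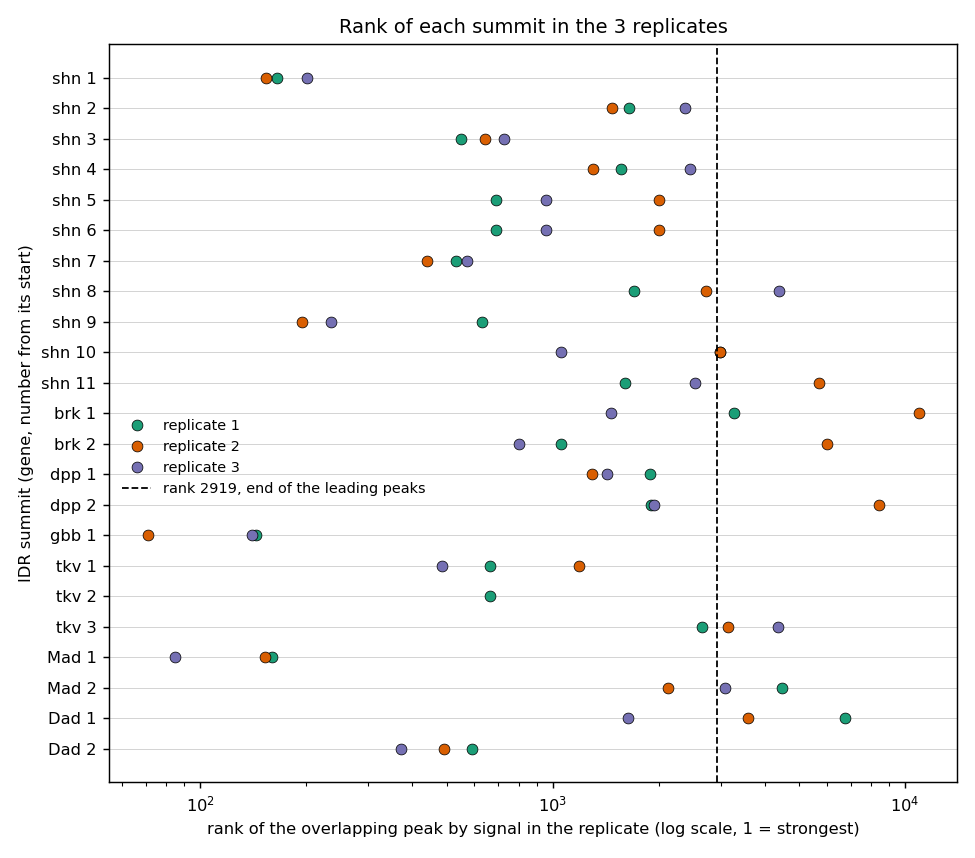
Rank of the peak that overlaps each of the 23 IDR summits in replicates 1, 2 and 3 (horizontal, log scale, 1 is the strongest), one line per summit, with the dashed line at rank 2919, the end of the leading peaks. The 3 points of shn 1, shn 7, gbb 1, Mad 1 and Dad 2 stay at or below rank 590. Those of shn 8, shn 10, shn 11, both brk summits, dpp 2, tkv 3, Mad 2 and Dad 1 straddle the line.

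A leading peak in all 3 replicates was found for 13 of the 23 summits (56.5%), against 57.8% of all IDR summits. A leading peak in 2 replicates was found for 4 (17.4%, against 28.0% of all) and in 1 replicate for 6 (26.1%, against 13.4% of all). By replicate, 19, 15 and 19 of the 23 overlapped a leading peak in replicates 1, 2 and 3 (82.6%, 65.2% and 82.6%), where the shares over all IDR summits were 83.8%, 78.4% and 80.6%. In shn 8 of 11 had a leading peak in all replicates, and in the other genes 5 of 12. Of the 23, 12 were among the stronger 1459 of the 2919 IDR peaks. A q-value under 0.05 was given for 21 (91.3%), against 95.4% of all IDR summits.

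Most summits of the pathway genes lay away from promoters. Only 2 of the 23 (8.70%, 95% Wilson interval 2.42% to 26.8%) were within 500 bp of a TSS, shn 1 and gbb 1, against 42.1% of all IDR summits. Introns held 20 of the 23 (87.0%), against 41.9%. The median distance to the nearest TSS was 2273 bp, against 795 bp over all IDR summits. Of the 23 summits, 16 lay in the 3 members over 20 kb. IDR summits in the spans of all genes over 20 kb were at promoters in 28.5% of cases. For the 16 summits of shn, tkv and dpp the share was 6.25%, or 1 of 16. Among the leading peaks of single replicates the promoter share in the 10 spans was higher than in the IDR list, at 14.3%, 23.8% and 13.6% (17.2% ± 5.70, SD, n = 3). The promoter share over all leading peaks of each replicate was not counted. The nearest TSS belonged to the gene itself for 17 of the 23.

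A forkhead word lay within 50 bp of 9 of the 23 summits (39.1%, 95% Wilson interval 22.2% to 59.2%), against 29.9% of all IDR summits, a value inside that interval. The interval takes the summits as independent, although 11 of the 23 are in shn, so it is a description and not a test. In flanking windows centred 500 bp to each side, the share was 17.4% for the pathway genes and 16.5% for all. Among intronic summits the shares were 35.0% (7 of 20) and 36.3%. The 9 were 3 of the 11 in shn (summits 1, 7 and 9), both in dpp, all 3 in tkv and the 1 in gbb, while brk, Mad and Dad had none. At least 2 words were counted in 4 windows (17.4%), against 7.57% of all, and in shn 9 and dpp 2 the words overlap. The share differed between replicates: 52.4%, 28.6% and 31.8% of the leading summits in the 10 spans had a word in replicates 1, 2 and 3 (37.6% ± 12.9, SD, n = 3). The forkhead share over all leading peaks of each replicate was not counted.

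Words known for the nuclear factors of the pathway were searched on both strands in the same windows. A Brinker word was found at 2 of the 23 summits, shn 10 and Dad 2, against 4.66% of all IDR summits. The Mad-Medea-Schnurri silencer element, the composite word through which Schnurri is recruited to brk, was found at 0 of 23, against 0.0343% of all. The word GTCTG, which Mad and Medea can bind and which also forms the end of the silencer element, was found at 5 of 23, against 10.5% of all. These 5 were shn 1 and 8, tkv 3, Mad 2 and Dad 1, and the word was in 17.4% of the 46 flanking windows, against 11.6% of those of all IDR summits. The median share of G and C in the 23 windows was 39.6%, against 38.6% for all. A match of letters is not evidence of binding by these factors, and a window without a match says nothing about them.

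A wider list of 42 genes of BMP and Activin signalling and of known Dpp targets was counted in the same way. It too was chosen with earlier results of these data known. Of these, 20 held an IDR summit (47.6%, 95% Wilson interval 33.4% to 62.3%), against 16.9% of all protein-coding genes. A leading summit was held by 18, 20 and 21 of them in the 3 replicates (19.7 ± 1.53, SD, n = 3), where the shares over all genes were 16.9%, 17.2% and 16.2%. By length the counts were 3 of 13 under 5 kb, 8 of 17 between 5 and 20 kb and 9 of 12 above, against 10.7%, 30.4% and 48.4% of all genes in these classes. By role, 0 of 5 further ligands, both further receptors (wit and babo), the Activin Smad gene Smox, 6 of 11 extracellular modulators, 4 of 5 intracellular regulators and 7 of 18 target genes held one. Some of these positions are shared with other genes. The babo summit lay 121 bp upstream of the starts of CG33199 and CG8229, and the Smox summit 46 bp into CG17982. The wit summit lay in wit, but its nearest TSS was that of CG32259, 1103 bp away. The Ance summit lay 9 bp upstream of the start of Smg5. Which gene such a peak serves was not tested. By the strongest peak of each gene, the first 6 genes were ush, magu, nej, Snoo, tin and gro. The strongest ush peak ranked 8 in the IDR list and 9, 9 and 8 in the replicates, but its nearest TSS was that of cbt, 1368 bp away. The strongest peak of magu, which encodes a secreted modulator, ranked 273 (295, 270 and 298 in the replicates), and that of nej, which encodes a histone acetyltransferase, ranked 357 (273, 282 and 684). The TSS nearest to this nej peak was that of lncRNA:CR42657, 447 bp away. The peak of Snoo, a regulator of Smad output, ranked 459 (414, 446 and 613), that of the mesodermal homeobox gene tin 511 (349, 569 and 1158), and that of the corepressor gene gro 532 (445, 544 and 704). The TSS nearest to this Snoo peak was that of Spn28Db, 34897 bp away. The 22 genes without an IDR summit were scw, mav, daw, Actbeta, myo, tsg, srw, cv, tld, tok, Smurf, Doc2, Doc3, zen, bap, Ubx, wg, bi, salm, salr, vg and eve. Of the 41 summits in this list, 34.1% were within 500 bp of a TSS and 26.8% had a forkhead word.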

How the data were processed

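Per the labels and the text deposited with each sample, the authors sonicated chromatin to 200-800 bp, called relaxed lists of peaks and background replicate by replicate, and once on all replicates pooled, with a separate input as control and the dm6 build as reference, and thresholded them by IDR. Not given in the sources used here were the aligner, the peak caller and its settings, the IDR threshold and the read depth. Intervals therefore cover counting error only. The deposited columns used were the signal per peak, the −log10 of the q-value and the summit offset. Offsets ran from 1 to the peak width, so start plus offset was read as a 1-based position. Ensembl release 115 genes and the release 6 sequence were used.

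Replicates were compared by rank, with an overlap of 1 bp. Features were given as promoter (within 500 bp of a TSS), then exon class, intron or intergenic. Shares carry 95% Wilson intervals. Members, lists, words and the wider gene list were chosen with earlier results of these data known, so counts are descriptions and no test was made. Named were all 10 genes, hosts and nearest TSSs of described summits, CG1677, the 3 genes nearest to shn over 4 counts, and, of the wider list, the 6 genes with the strongest single peak and all genes without one. Sequences shown are those of the strongest summit of each member, with every brk summit, one chromosome arm left out. Alternatives changed the span, window, word, list, merging distance and replicates. The counting was tested on simulated peaks. The scripts ran under Python 3.11.15 with pandas 2.3.3 and NumPy 2.4.6, drew with matplotlib 3.10.9 and took intervals from SciPy 1.17.1.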

Additional observations from a re-analysis of the deposited data

How the results depend on the processing

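Of 82 alternative values, 65 stayed within 1.5 times the count given above, or for shares within 1 SD of the replicates, and 17 moved. Counting only summits within 1000 bp of a TSS of the gene left 3 of the 10 genes, 3 summits in all, 1 in shn, 1 in brk and 10 of the 42 other genes. In the stronger 1459 IDR peaks there were 12 summits in the 10 genes, 6 in shn and 0.0 in brk. A span from 1000 bp upstream left 21 summits in 6 of the 10 genes, with 1 brk summit. It left none in gbb, whose only IDR summit, the strongest of the set, lay 1159 bp upstream. Leaving out each replicate in turn gave mean brk counts of 1.0 to 1.5, the lowest without replicate 3. The forkhead share was 56.5% in windows of 100 bp to each side, 13.0% for GTAAACA alone and 58.3% in the stronger peaks. For GTAAACA alone the share of all IDR summits was 8.08%. For the wider window and the stronger peaks the share of all IDR summits was not counted, so those values have no background here. The promoter share was 17.4% at 1000 bp, 17.2% as the mean over replicates and 14.0% to 19.0% with each replicate left out. Apart from the fewer or wider regions counted, the cause was not tested. 2 alternatives were chosen after seeing the data: merging summits within 400 bp gave 21 summits, 10 of them in shn, and counting each summit only for the nearest protein-coding TSS gave 18 summits in 6 of the 10 genes and 14 of the 42 others. No paired analysis was possible because the series has 1 group. With 1 group, 3 replicates and no depth, absence from the IDR list is not absence of binding.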
